A study of Drosophila melanogaster with 12 samples.

Results

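The genes described here encode the folding chaperones of the endoplasmic reticulum (ER), factors of ER-associated degradation (ERAD), and the sensors and transcription factor of the unfolded protein response (UPR). They were chosen by their FlyBase symbols: Hsc70-3, Gp93, Calr, Cnx99A, Der-1, Edem2, Ire1, PEK, Atf6 and Xbp1. All 10 had a row among the 13515 genes of the table, and all 10 passed the filter on low values, a mean of at least 10 over the libraries, with 10845 genes in all. RNA of adult Drosophila melanogaster heads was compared between Elav-Gal4/+;UAS-tauR406W/+ flies, which make human tau with the R406W change in all neurons under the pan-neuronal driver, and Elav-Gal4/+ flies, which carry the driver alone. Both genotypes were sampled at day 10 of adulthood, with 6 libraries each (A to F), and a library was made from a pool of 18 male and female heads, stated by the submitters to be biologically independent of the other pools. RNA of the human transgene was not analysed here.

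Proteins that enter the secretory pathway fold in the ER with the help of lumenal chaperones, of lectin chaperones that hold their sugar chains, and of enzymes that form disulfide bonds. Chains that fail to fold are returned to the cytosol and degraded, which is the work of ERAD. When unfolded chains build up, sensors in the ER membrane start the UPR: Ire1 splices the mRNA of the transcription factor Xbp1, PEK (PERK in mammals) slows translation by phosphorylating eIF2alpha, and Atf6 in mammals is cut to release a transcription factor. Splicing and phosphorylation do not show in a gene's total RNA, so the values below measure how much RNA each gene had and not these steps. Whether the response was active was not tested.

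Values are the authors' normalised counts, and fold changes are tau over control on the scale log2(value + 1). The tau libraries held an estimated 25.7 to 41.5 M read pairs each, and the control libraries 20.2 to 33.2 M. The member with the lowest values, Der-1, rested on an estimated 643 to 920 read pairs in the tau libraries and 737 to 1149 in the control libraries, which is a counting error of 2.95% to 3.94%, and the other 9 genes rested on more. Tau B, control E and control F held reads in genes that were silent elsewhere, with a mean of 24.02, 11.5 and 5.39 over 1973 such genes, against 1.17 to 2.49 in the other 9 libraries.

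RNA of the membrane lectin Cnx99A, of the ERAD factors Der-1 and Edem2 and of the sensor Ire1 was lower in tau heads. The lumenal chaperones Hsc70-3, Gp93 and Calr did not pass the test, though the fold change of Gp93 was as large as that of Cnx99A, and whether the genes differ from each other in fold change was not tested. Of the 10 genes, 4 fell at an adjusted p under 0.05 (limma, Benjamini-Hochberg over all tested genes): Cnx99A, Der-1, Edem2 and Ire1. The count was 2 in 8 of the 12 fits that left out 1 library, in which the calls of Edem2 and Ire1 were lost, and 1 without tau B, control E and control F together. None rose and 6 were not called; at an unadjusted p under 0.05 by limma, 1 was higher, Atf6. Over all tested genes 5.23% were called, 3.13% lower in tau and 2.1% higher. The median log2 fold change of the 10 genes was −0.42, against 0.01 over all tested genes. Cnx99A, Der-1 and Edem2 were also the 3 of the 10 whose tau and control libraries did not overlap, and over all tested genes 1.8% lay lower in tau without overlap.

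**Figure D1:**
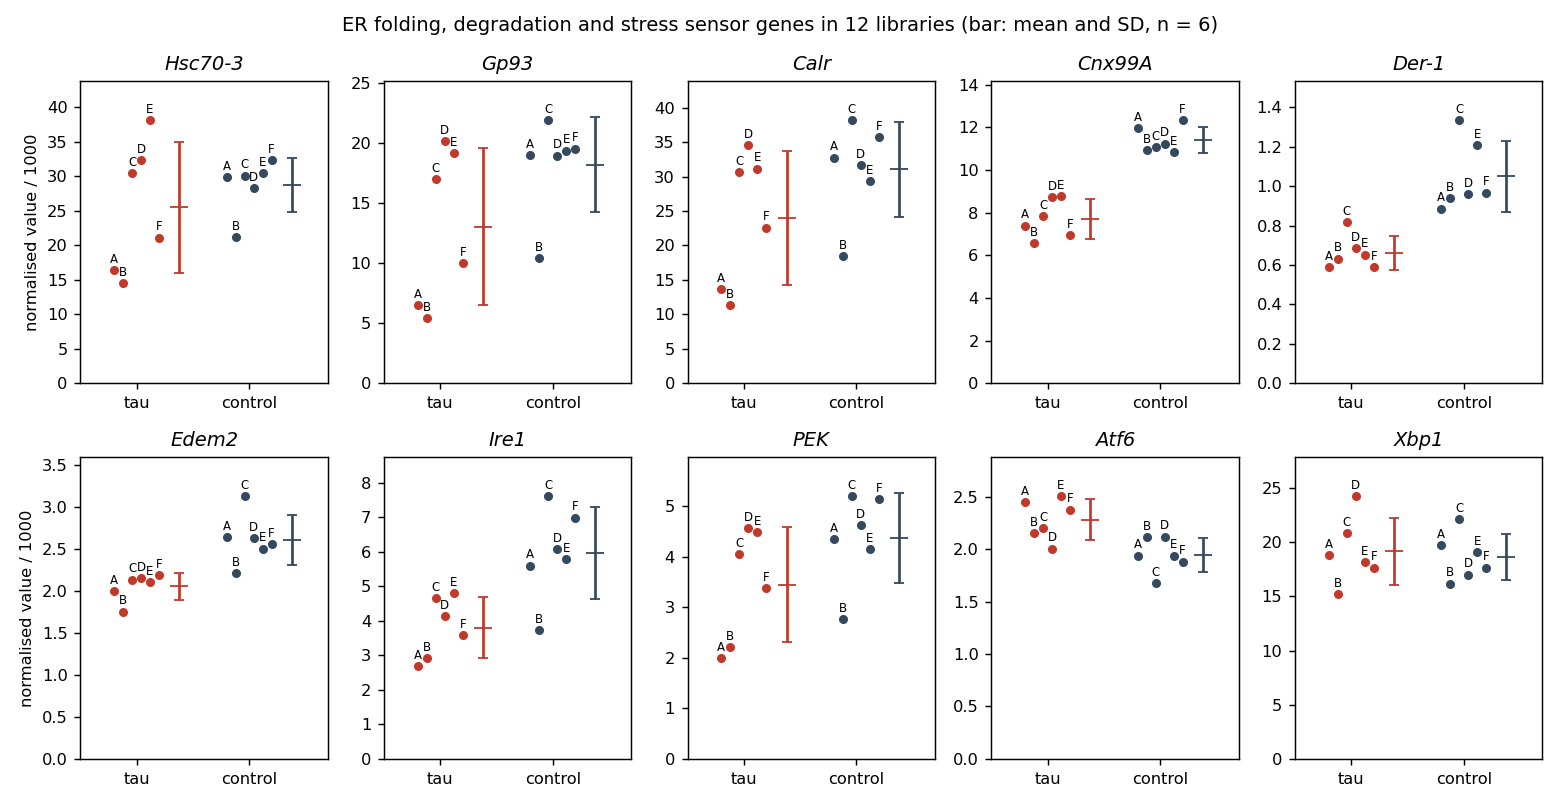
Normalised values (divided by 1000 on the axis) of the 10 genes in each library (points, labelled by library letter), with tau left of control and the group mean and SD (n = 6) as a bar beside the points. For Cnx99A, Der-1 and Edem2 every tau point lies below every control point, whereas for Hsc70-3, Gp93, Calr and PEK the tau points are spread widely and control B lies far below the other controls.

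Per kilobase of exon, the order of levels was much the same in both groups. Calr had the highest mean level, 14299 ± 5829 per kb in tau and 18507 ± 4101 per kb in control libraries (SD, n = 6 each). It was followed by Xbp1, at 8946 ± 1442 and 8704 ± 1011 per kb, and by Hsc70-3, at 7102 ± 2647 and 7999 ± 1088 per kb. The length was the union of the exons of all annotated transcripts, so the order depends on it. It was 3589 bp over 5 transcripts for Hsc70-3 and 2142 bp over 2 for Xbp1. Before division by length Hsc70-3 was the higher of these 2, with means of 28710 and 18645 in control libraries. Gp93 averaged 4586 and 6393 per kb, Cnx99A 2759 and 4079, Ire1 942 and 1480, and PEK 708 and 896 per kb in tau and control libraries. At the low end stood Atf6 with 559 and 476, Der-1 with 532 and 844, and Edem2 with 503 and 639 per kb. In tau libraries the ranges of neighbours in this order overlapped, except for a gap between Cnx99A and Ire1. In control libraries there were gaps between Calr and Xbp1, between Cnx99A and Ire1, and between Edem2 and Atf6. Calr stood above 99.1% of the 10769 tested genes with an annotated exon length in control heads, and Atf6, the lowest there, above 65.8%.

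Hsc70-3 (FBgn0001218; X, 11801696 to 11807117, minus strand, dm6), the fly BiP, is the main Hsp70-type chaperone of the ER lumen. It had 16429, 14547, 30397, 32382, 38081 and 21099 in tau libraries A to F, against 29906, 21191, 30095, 28263, 30486 and 32318 in control libraries A to F. Tau A and tau B lay below every control, and tau F just below control B, the lowest of them. Tau D and tau E lay above every control, and the groups overlapped. Its log2 fold change was −0.25 ± 0.21 (SE; 95% interval −0.69 to 0.20; limma adjusted p = 0.611). That value was −0.10 without tau B and −0.38 without tau E.

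Gp93 (FBgn0039562; 3R, 27948711 to 27952151, plus strand), the Hsp90-type chaperone of the ER known as GRP94 in mammals, had a similar pattern. Its values were 6505, 5426, 16984, 20147, 19122 and 9995 in tau libraries A to F, and 18949, 10393, 21854, 18921, 19350 and 19509 in control libraries A to F. Tau A, tau B and tau F were lower than every control, and the other tau libraries lay among the controls. The log2 fold change was −0.62 ± 0.30 (95% interval −1.27 to 0.02; limma adjusted p = 0.299), and it was −0.41 without tau B. The annotated gene overlaps the end of CG4951 on the opposite strand, which averaged 294.5 and 231 in tau and control libraries.

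The lectin chaperones calreticulin and calnexin hold glycoproteins during folding, the first free in the lumen and the second anchored in the ER membrane. Calr (FBgn0005585; 3R, 9628691 to 9630851, minus strand) had 13630, 11287, 30635, 34551, 31167 and 22606 in tau libraries A to F, against 32776, 18489, 38158, 31676, 29374 and 35743 in control libraries A to F. Only tau A and tau B lay below all the controls. Its log2 fold change was −0.46 ± 0.26 (95% interval −1.02 to 0.10; limma adjusted p = 0.396), and −0.26 without tau B.

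Cnx99A (FBgn0015622; 3R, 29315254 to 29319644, minus strand), a calnexin, had 7390, 6569, 7832, 8746, 8796 and 6938 in tau libraries A to F, and 11968, 10936, 11074, 11245, 10861 and 12328 in control libraries A to F. The highest tau library stayed below the lowest control. It fell 1.49-fold, with a mean of 7712 ± 924 in tau and 11402 ± 604 in control heads (SD, n = 6 each) and a log2 fold change of −0.57 ± 0.09 (95% interval −0.75 to −0.39; limma adjusted p = 0.00112). By its p-value it ranked 66 among the tested genes, and it was called under each alternative run here, 12 that left out 1 library and 11 others (adjusted p up to 0.0177). The ratio of Cnx99A to Calr, which has Calr below the line and so carries its low values, was 0.542, 0.582 and 0.591 in tau A, tau B and control B, and 0.253 to 0.370 in the other 9. Cnx14D, another calnexin gene, averaged 95.8 in tau and 109.9 in control libraries and was not called (log2 fold change −0.21 ± 0.25, limma adjusted p = 0.746).

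Der-1 and Edem2 are the ERAD genes among the 10. Der-1 (FBgn0267972; 2L, 1973957 to 1975413, plus strand) encodes a derlin, a membrane protein through which misfolded chains leave the ER. It had 591, 633, 817, 687, 653 and 587 in tau libraries A to F, against 886, 939.7, 1333, 958, 1210 and 967 in control libraries A to F. No tau library reached the lowest control. Der-1 fell 1.58-fold, with a log2 fold change of −0.66 ± 0.12 (95% interval −0.91 to −0.40; limma adjusted p = 0.00472). The call stood whichever single library was left out (adjusted p up to 0.0135), and was missed without tau B, control E and control F together (−0.62, adjusted p = 0.0535). Der-2, the other derlin gene on the lists, averaged 712 in tau and 627.5 in control libraries and was not called (log2 fold change 0.18 ± 0.12, limma adjusted p = 0.452).

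Edem2 (FBgn0032480; 2L, 13192201 to 13197281, plus strand) belongs to the EDEM family, mannosidase-like proteins that mark misfolded glycoproteins for degradation. Its values were 1999.8, 1753, 2135, 2150, 2101 and 2193 in tau libraries A to F, and 2640, 2209.9, 3129, 2627, 2503 and 2562 in control libraries A to F. The groups did not overlap, though tau F lay just below control B. Edem2 fell 1.27-fold (log2 fold change −0.34 ± 0.09, 95% interval −0.53 to −0.15; limma adjusted p = 0.0357). Its call was lost without any single library other than tau D and control B (adjusted p from 0.0517 to 0.0796), and with equal library totals (−0.24, adjusted p = 0.100). The annotated gene overlaps CG16972 on the opposite strand by 180 bp, and CG16972 averaged 1299 and 1131 in tau and control libraries.

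Among the sensors, only Ire1 was called, and Ire1, PEK and Atf6 had fold changes of different size and sign. Ire1 (FBgn0261984; 3R, 19853908 to 19861291, minus strand), a kinase and RNase, had 2698, 2917, 4651, 4146, 4802 and 3593 in tau libraries A to F, against 5602, 3733, 7617, 6080, 5797 and 6992 in control libraries A to F. Apart from control B, every control lay above every tau library. It fell 1.57-fold (log2 fold change −0.65 ± 0.17, 95% interval −1.02 to −0.28; limma adjusted p = 0.0388). That call was lost without tau A, tau B or tau F, and without any single control except B (adjusted p from 0.067 to 0.0842), while leaving out control B gave an adjusted p of 0.00563. It was lost too with equal library totals, without the variance trend and without tau B, control E and control F together (adjusted p = 0.059, 0.104 and 0.248). The annotated gene shares 496 bp with MICU3 on the opposite strand, which averaged 797 and 776 in tau and control libraries.

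PEK (FBgn0037327; 3R, 5458563 to 5464753, minus strand), the eIF2alpha kinase, had 1997, 2208, 4055, 4571, 4492 and 3373 in tau libraries A to F, against 4348, 2759.9, 5197, 4618, 4156 and 5134 in control libraries A to F. Tau A and tau B were again below every control, and the rest overlapped. Its log2 fold change was −0.38 ± 0.21 (95% interval −0.83 to 0.06; limma adjusted p = 0.369). It was −0.24 without tau A and −0.27 without tau B.

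Atf6 (FBgn0033010; 2R, 5144733 to 5154756, plus strand) was measured at 2448, 2155, 2199, 2005, 2506 and 2377 in tau libraries A to F, and at 1938, 2112, 1679, 2119.8, 1939 and 1881 in control libraries A to F. All tau libraries except tau D exceeded all controls. The log2 fold change was 0.23 ± 0.08 (95% interval 0.05 to 0.41) with an unadjusted p of 0.0145, and it missed the threshold after adjustment (limma adjusted p = 0.139). It passed with equal library totals (0.34, adjusted p = 0.0447), a scaling that moved the median of all genes to 0.11.

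Xbp1 (FBgn0021872; 2R, 21143545 to 21145750, plus strand), the transcription factor downstream of Ire1, had 18821, 15226, 20849, 24261, 18146 and 17669 in tau libraries A to F, against 19759, 16178, 22156, 17026, 19089.9 and 17660 in control libraries A to F. The range of the controls lay within that of the tau libraries. The log2 fold change was 0.03 ± 0.11, with a 95% interval from −0.21 to 0.27 (limma adjusted p = 0.928). The table has 1 value per gene, so the spliced and unspliced forms of this RNA were not told apart.

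**Figure D2:**
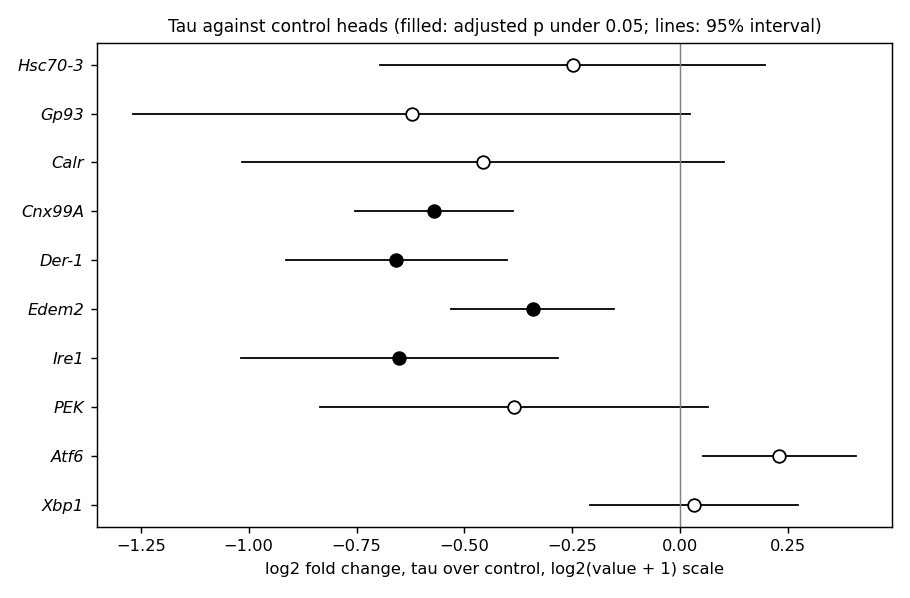
Log2 fold change of tau over control for the 10 genes (points; filled where the limma adjusted p is under 0.05) with 95% intervals (lines), on the log2(value + 1) scale. Cnx99A, Der-1, Edem2 and Ire1 are filled and lie between −0.66 and −0.34, and the intervals of Hsc70-3, Gp93, Calr, PEK and Xbp1 include 0.

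Within each group, 5 of the 10 genes went up and down together from library to library. After the mean of its own group was taken from each library, Hsc70-3, Gp93, Calr, PEK and Ire1 had Pearson correlations of 0.85 to 0.98 with each other over the 12 libraries, with a median of 0.94 over 10 pairs (Spearman's rho 0.80 to 0.97). Without the 2 libraries farthest from the median, the same pairs had r of 0.80 to 0.98. The other 5 genes, Cnx99A, Der-1, Edem2, Xbp1 and Atf6, had r from −0.63 to 0.73 among themselves (rho −0.52 to 0.62). Pairs between the sets had r from −0.41 to 0.84 (rho −0.29 to 0.85), and −0.45 to 0.84 without the 2 farthest libraries. By rho and without these libraries, the highest of them passed the lowest pairs within the set that moved together. Cnx99A with Hsc70-3 had r = 0.84, near the 0.85 of Ire1 with Hsc70-3. The 5 genes that moved together were grouped after their values were seen, and the correlations are given as a description with no test. Their libraries share a protocol and a pooling scheme, and each point is 1 pool of heads.

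In this pattern 3 libraries were low and 3 were high. The mean deviation of the 5 genes was −0.65 in tau A, −0.74 in tau B and −0.64 in control B on the log2 scale, and 0.40, 0.51 and 0.55 in tau C, tau D and tau E. Tau F and the remaining controls lay between −0.07 and 0.28. The coefficient of variation of Gp93 was 50.1% in tau and 21.8% in control libraries, that of Calr 40.8% and 22.2%, and that of Hsc70-3 37.3% and 13.6%. Genes with a mean of at least 500 had a median of 11.7% in tau and 13.6% in control libraries. Cnx99A varied by 11.98% and 5.29%, Edem2 by 7.87% and 11.4%, and Atf6 by 8.46% and 8.40% in tau and control libraries.

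**Figure D3:**
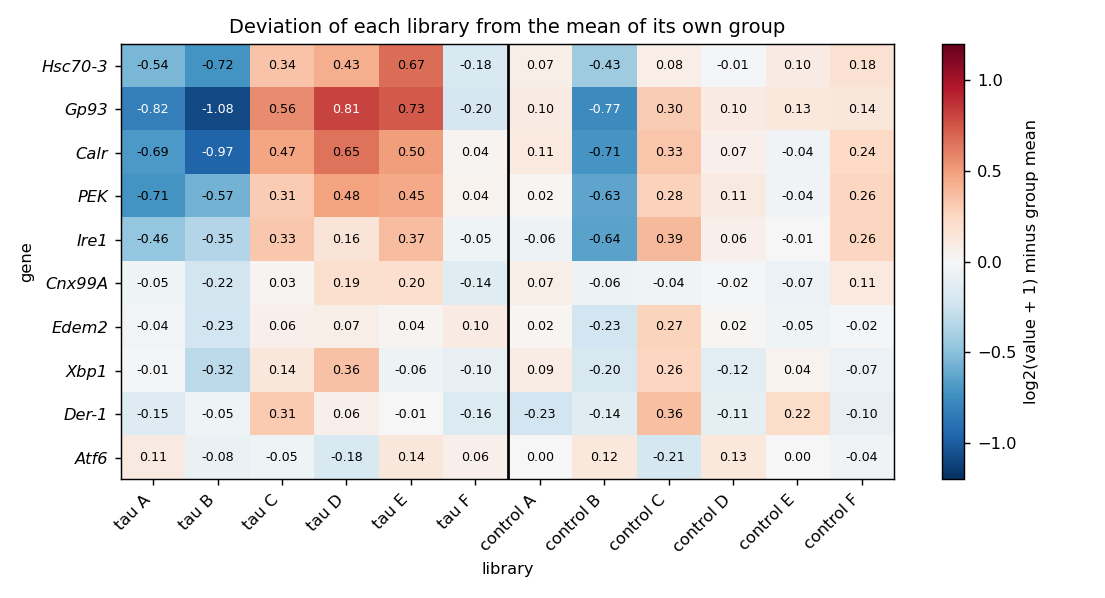
Deviation of each library from the mean of its own group, log2(value + 1), for the 10 genes (rows) and 12 libraries (columns, tau left of control), in colour and in figures. Hsc70-3, Gp93, Calr, PEK and Ire1 are low together in tau A, tau B and control B and high together in tau C, tau D and tau E, while the rows of Cnx99A, Edem2, Der-1 and Atf6 stay paler.

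By the same measure, the genes most like each member among the 9016 others with a mean of at least 50 were as follows. Hsc70-3 was closest to Grp170 (r = 0.98), which encodes a large Hsp70-type partner of BiP, and to Gp93 (r = 0.98). Gp93 was closest to Calr and Hsc70-3 (r = 0.98 each). Calr itself was closest to wdp and Pld3 (r = 0.99 and 0.98), PEK to CG5849 and Gp210 (0.98 each), and Ire1 to Nepl6 and Stim (0.97 each). Stim encodes the calcium sensor of the ER membrane. Xbp1 was closest to Cyp309a2 and Ahcy (0.97 and 0.95), and Atf6 to SoxN and Ephrin (0.96 each). Cnx99A had no neighbour as near, with eRF3 at 0.93 and htk at 0.90. Der-1 was closest to CG30338 and CG6330 (0.95 and 0.92), and Edem2 to Gel and Alg11 (0.95 and 0.94). Alg11 encodes a mannosyltransferase that builds the sugar chain for glycosylation.

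Many other ER genes followed Gp93 within the groups. Of 81 further genes on 7 lists of ER function, 24 (29.6%) had r of at least 0.8 with Gp93, against 4.2% of all tested genes. On the list of lumenal chaperones and the calnexin cycle this held for 5 of 9, among them P58IPK, a co-chaperone of BiP (r = 0.96), and Uggt, the glucosyltransferase that returns unfolded glycoproteins to calnexin (r = 0.93). It held for 6 of 14 ERAD genes, 3 of 8 disulfide enzymes, 3 of 6 subunits of the oligosaccharyltransferase, 3 of 19 genes of the translocon and signal peptidase, 3 of 15 of ER exit and 1 of 10 of the UPR. Ero1L, the oxidase of the ER, was one of them (r = 0.95): it had 1374, 1627 and 1705 in tau C, tau D and tau E, above every control, and 915, 692 and 981 in tau A, tau B and tau F, against 901 to 1097 in the controls.

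Of these 81 genes 3 fell (3.7%), 1 rose (1.23%) and 77 were not called between the genotypes. The 4.94% called lay near the 5.23% of all tested genes, of which 3.13% were lower and 2.1% higher. The 81 genes had a median log2 fold change of −0.12 (57 below 0). At an unadjusted p under 0.05, 22 were lower (27.2%) and 6 higher (7.41%), against 9.55% lower and 8.63% higher among all tested genes. Ost48, a subunit of the oligosaccharyltransferase that attaches sugar chains, fell 1.75-fold, with a mean of 1715 ± 454 in tau and 3051 ± 1072 in control heads (log2 fold change −0.80 ± 0.21; limma adjusted p = 0.0366). SsRbeta, a subunit of the complex beside the translocon, fell 1.46-fold, with 1019 ± 190 in tau and 1484 ± 226 in control heads (limma adjusted p = 0.0206). Edem1, the relative of Edem2, fell 1.34-fold, with 2101 ± 343 in tau and 2793 ± 340 in control heads, at an adjusted p of 0.04997 that lay at the threshold. Thor, the fly 4E-BP that holds back translation, rose 1.52-fold, with 9318 ± 2312 in tau and 5998 ± 834 in control heads (limma adjusted p = 0.0262). Calls of these 4 genes were lost without the variance trend (adjusted p from 0.0545 to 0.104) without tau B, control E and control F together (from 0.0637 to 0.222), and once yolk protein RNA was a covariate (from 0.136 to 0.315). Edem1 was lost too with equal library totals (adjusted p = 0.111), a pseudocount of 0.5 (0.0503) or no filter on low values (0.0543). Single libraries mattered too. SsRbeta was lost without tau E (adjusted p = 0.0537). Of the 12 fits that left out 1 library, Edem1 kept its call in 3 and Ost48 in 5 (adjusted p up to 0.104 and 0.0859 in the others). Thor was lost without tau A, tau C or tau D, and without the controls of the same 3 letters (adjusted p from 0.0511 to 0.0668).

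By list, none of the 9 other lumenal chaperone and calnexin cycle genes was called by limma (median −0.28, 7 below 0), and 3 were lower at an unadjusted p under 0.05. GCS2alpha, the glucosidase subunit that trims sugar chains before calnexin binds, came nearest, at −0.27 ± 0.09 (limma adjusted p = 0.119). None of 8 disulfide enzymes was called by limma (median −0.37) and 3 were lower at an unadjusted p under 0.05, with CG5554 nearest at −0.40 ± 0.14 (limma adjusted p = 0.113). Of 14 other ERAD genes 1 fell (median 0.02), of 19 translocon and signal peptidase genes 1 fell (median −0.12), and of 6 oligosaccharyltransferase subunits 1 fell (median −0.38). At an unadjusted p under 0.05 by limma, 4 of these 6 subunits (66.7%) were lower and 0 higher. The translocon and signal peptidase list had 6 lower (31.6%) and 1 higher, the other ERAD genes 3 and 1, and the other UPR genes 0 and 2. Among all tested genes 9.55% were lower and 8.63% higher. Of 10 other UPR genes 1 rose (median 0.01), and of 15 ER exit genes none was called by limma (median −0.09) while 3 were lower and 2 higher at an unadjusted p under 0.05, with Sec31, a coat protein of ER exit vesicles, nearest at 0.28 ± 0.09 (limma adjusted p = 0.109). Within the UPR list, crc, which encodes ATF4, had a log2 fold change of −0.14 ± 0.08 (limma adjusted p = 0.412), and PPP1R15, the phosphatase subunit that reverses the action of PEK, of −0.01 ± 0.11 (limma adjusted p = 0.983).

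**Figure D4:**
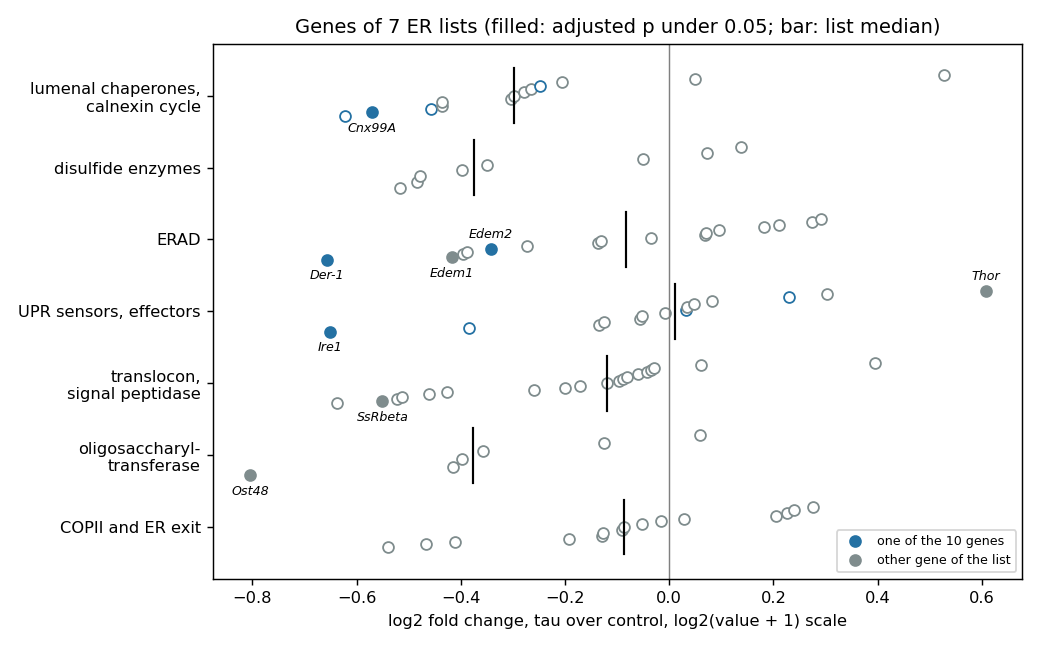
Log2 fold change of tau over control for each tested gene of 7 ER lists (points; blue for the 10 genes, grey for the rest; filled where the limma adjusted p is under 0.05), with the median of each list, the 10 genes included, as a bar. Left of 0 lie 17 of 19 translocon and signal peptidase genes, 11 of 13 lumenal chaperone genes, 5 of 6 oligosaccharyltransferase, 6 of 8 disulfide, 10 of 15 ER exit, 9 of 16 ERAD and 7 of 14 UPR genes.

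Marker RNA of some cell types of the head differed between the groups as well, and in bulk heads fewer cells of a type and less RNA per cell cannot be told apart. The summed level of 15 haemocyte markers ran from 52238 to 70965 in tau and from 82920 to 124528 in control libraries, without overlap. Of the 15, 9 fell and none rose by limma (0 higher and 11 lower at an unadjusted p under 0.05). Ppn and Col4a1 added most to the sum, with means of 21726 and 8996 in tau and 38525 and 15156 in control libraries. All 15 had a log2 fold change below 0, and 6 were not called. Among these 6, Hml, crq and ush had −0.19, −0.11 and −0.12 (limma adjusted p = 0.590, 0.538 and 0.629). Within groups the haemocyte sum had r = 0.70 with Gp93, and the sums of neuron, glia and photoreceptor markers had −0.40, 0.36 and −0.47. Gene by gene, the haemocyte markers had a median r of 0.54 with Gp93. Of the 15, 1 (6.67%) had r of at least 0.8, against 4.2% of all tested genes. Fat body markers, 17 genes that include the yolk proteins, summed to 786383 to 1647690 in tau and to 1009480 to 2744380 in control libraries. Of the 16 that were tested 3 fell and 1 rose. The fat body sum, yolk proteins included, had r = −0.36 with Gp93. Gene by gene the median r was 0.08, and 2 of the 16 (12.5%) had r of at least 0.8. For the glia markers the median r was −0.34, opposite in sign to the r of their sum, and 2 of 10 (20%) had r of at least 0.8. Neuron and photoreceptor markers had median r of −0.41 and −0.50, and 0 on either list reached 0.8. The sums of 12 neuron markers ran from 131645 to 173526 in tau and from 118373 to 190160 in control libraries, and none was called by limma, nor had an unadjusted p under 0.05 (0 genes). Of 10 glia markers 1 fell, Eaat1, with sums of 55972 to 63387 in tau and 64153 to 72534 in control libraries that did not overlap. Of the 10, 7 had a log2 fold change below 0 and 3 above (median −0.13), with repo at 0.03. Of 13 photoreceptor markers 2 fell, with sums of 1139140 to 1472920 and 1352860 to 1641180 in tau and control libraries. Most of that sum was ninaE, which averaged 869061 and 1001930 and was not called (limma adjusted p = 0.689). Over all tested genes 3.13% were called lower and 2.1% higher. No marker was listed at 0 in every library. Of 4 female-biased RNAs limma called 1, fit, which averaged 732 ± 350 in tau and 4274 ± 3282 in control heads (limma adjusted p = 0.00178; exact two-sided permutation p = 0.00216, the smallest 6 against 6 libraries can give; 0.00866 adjusted over 4 genes). Yp2 passed this exact permutation test (log2 difference −1.22, adjusted 0.0476) but was not called by limma (adjusted p = 0.0706), whereas Yp1 (−0.91, adjusted 0.0996) and Yp3 (−0.89, adjusted 0.0895) passed neither test (limma adjusted p = 0.259 and 0.185). The summed level of the 4 had r = −0.41 with Gp93 within groups, and estimated depth had r = −0.35. With the mean log2 value of the 3 yolk protein genes in the model, Cnx99A and Der-1 kept their calls, and those of Ire1 (−0.76, adjusted p = 0.129) and Edem2 (−0.31, adjusted p = 0.268) were lost. The part of cell makeup and sex ratio in these results was not tested.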

How the data were processed

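Each library's deposited value per gene is a signal, made by the authors by dividing gene counts by DESeq2 normalisation factors, per the file headers and name. Per the submitters' processing notes, Trimmomatic 0.36, FastQC, Salmon 0.13.1 and DESeq2 1.24 were used with build dm6. For the transcript annotation and any use of strand, the sources used here give nothing. Low values piled up at multiples of 1 read pair, but only 31.0% to 72.7% of those under 10 pairs were whole within 0.05, so counts were not recovered and no count model was run.

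Symbols matched 13433 of 13515 rows through a gene name table; 10 of the names on the lists matched none and were not analysed here. Positions and exon lengths are from the Ensembl annotation of BDGP6, which has dm6 coordinates; no sequence was available to print.

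Tau was compared with control by limma 3.58.1 in R 4.3.3 on log2(value + 1), with a variance trend, no covariate and genes with a mean of at least 10. Calls had a Benjamini-Hochberg adjusted p under 0.05. The fit was tested on simulated data. The limma p-values set the group difference against the spread between these pools, with variances moderated toward a trend over all tested genes. Members and gene lists were chosen with earlier results of these data known. Besides the 10 genes, the text names up to 4 called genes of each list, or the gene with the smallest adjusted p where none was called, and the 2 genes most like each member. P58IPK, Uggt, Ero1L, crc, PPP1R15, Cnx14D, Der-2, Eaat1, repo, Ppn, Col4a1, Hml, crq, ush and ninaE were named after their values were seen. Alternatives changed the pseudocount, filter, scaling, variance trend and weights, added a replicate block or a yolk protein covariate, or left libraries out.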

Additional observations from a re-analysis of the deposited data

Results flagged for a closer look

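In 1 control library, B, 4 of the 10 genes lay far below the other 5 controls, with a gap to the next library that passed Dixon's 95% critical value for 6 samples on the log2 scale. They were Hsc70-3 at 21191, Gp93 at 10393, Calr at 18489 and PEK at 2759.9. This check covered 20 groups of 6 libraries, and chance flags about 1 group in 20. The 4 genes are not independent in it, since they move together from library to library. Without control B the log2 fold changes of these genes lay further from 0 and were still not called: −0.33 for Hsc70-3, −0.78 for Gp93, −0.60 for Calr and −0.51 for PEK (limma adjusted p = 0.453, 0.159, 0.214 and 0.166). No tau library was flagged for any of the 10 genes.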

How the results depend on the processing

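Of the 10 genes, Cnx99A kept its direction and call under every alternative run, and Hsc70-3, Gp93, PEK and Calr kept their direction and were never called. With equal library totals Ire1 and Edem2 lost their calls (−0.55 and −0.24) and Atf6 gained one (0.34), so that of the 10 genes 2 were lower and 1 higher. Over all genes this scaling gave 525 higher and 261 lower, which makes 66.8% of calls rises, against 228 higher and 339 lower (40.2% rises) with the deposited values, and 3 other ER genes were higher. Without the variance trend Ire1 and Edem2 were not called (−0.65 and −0.34), 2 of the 10 genes were lower, 212 of all genes were lower, and of the other ER genes 0 were lower and 0 higher. Without tau B, control E and control F together, Ire1, Der-1 and Edem2 were not called (−0.52, −0.62 and −0.32), 1 of the 10 genes was lower, and 126 of all genes were higher and 155 lower, with 0 and 0 of the other ER genes. The yolk protein covariate gave −0.76 for Ire1 and −0.31 for Edem2 without a call, 2 of the 10 genes lower, 54 of all genes higher and 92 lower, and 0 and 0 of the other ER genes. Array weights gave 424 genes higher, 2 of them other ER genes, and a minimum mean of 100 gave 5 other ER genes lower. The cause of these shifts was not tested.

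The fit with a replicate block, which treats same-letter libraries as pairs, called 15 of the other ER genes lower, where the fit without it called 3, and changed no call of the 10 genes. With the block the limma adjusted p of Gp93 was 0.0672, against 0.299 without it. Over all tested genes, deviations of same-letter libraries had correlations from −0.23 to 0.14, and 2 of 6 tau libraries were closest to the control of their own letter, so the letters were not taken as pairs. For the 5 genes that moved together, the mean deviations in tau and control were −0.74 and −0.64 for B and 0.40 and 0.28 for C. They were 0.51 and 0.06 for D and 0.55 and 0.03 for E. For A they were −0.65 and 0.05, and for F −0.07 and 0.22. Leaving out 1 library at a time gave 147 to 239 genes higher and 222 to 447 lower, 2 to 4 of the 10 genes lower, and 1 to 9 of the other ER genes lower and 0 to 1 higher. Over these fits Ire1 ran from −0.78 to −0.56, Edem2 from −0.39 to −0.29 and Xbp1, which was never called, from −0.04 to 0.10; it was −0.039 without tau D and −0.0072 without control B. Depth limits none of the 10 genes, whose counting error was at most 3.94%.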
